A study of Homo sapiens with 40 samples.

Results

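The genes described here are the aminoacyl-tRNA synthetases, the enzymes that load each tRNA with its amino acid. They were chosen by name from the table of counts: every gene whose symbol is a letter for an amino acid followed by ARS and an optional 1 or 2, together with EPRS1, FARSA, FARSB, AIMP1, AIMP2 and EEF1E1. This rule found 40 of the 19962 genes in the table, of which 20 encode cytosolic enzymes, 17 mitochondrial enzymes and 3 noncatalytic proteins. No measured value entered the rule.

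The libraries came from RKO, a human colorectal carcinoma line, here carrying Cas9 that is switched on by doxycycline (Dox). All groups share that Cas9 and a GFP gene, and each line was transduced with a lentiviral vector bearing 2 guide RNAs and a blue fluorescent protein, for which cells were sorted; the labels name no single-cell clone. The sgAAVS1 line, guided to a non-coding control locus, had a DMSO and a Dox group (250 ng/mL for 72 hours). The sgIGF2BP2 and sgIGF2BP3 lines each had DMSO, Dox, non-targeting siRNA (siControl) and targeting siRNA groups (siIGF2BP2 or siIGF2BP3, 75 nM for 48 hours). IGF2BP2 and IGF2BP3 are RNA-binding proteins. Every culture received 4-thiouridine at 250 µM for 2 hours before RNA was taken, and all 10 groups had 4 libraries, each from a well of its own. Replicate wells of 1 line measure the spread between wells only. The siRNA effects were measured in different lines, so the line and the siRNA target cannot be told apart when the 2 siRNAs are compared.

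An aminoacyl-tRNA synthetase joins an amino acid to the tRNAs that read its codons, using ATP. Human cells keep separate nuclear-encoded sets of these enzymes for the cytosol, named with a 1, and for the mitochondrion, named with a 2. GARS1 and KARS1 serve both compartments, cytosolic phenylalanyl-tRNA synthetase is built from FARSA and FARSB, and EPRS1 carries both the glutamyl and the prolyl activity. Several cytosolic enzymes are held in a multisynthetase complex by the scaffold proteins AIMP1, AIMP2 and EEF1E1. Many genes for cytosolic synthetases are known targets of ATF4, the transcription factor of the integrated stress response. The series concerns IGF2BP3 during the unfolded protein response, a neighbouring stress pathway.

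Total counts per library ranged from 10018200 to 24822800. Group means of IGF2BP2 fell from 85.3 to 33.9 CPM (counts scaled to the size of the library) with Dox in sgIGF2BP2 cells and from 108 to 30.2 CPM with siIGF2BP2, and those of IGF2BP3 fell from 180.2 to 56.2 CPM with Dox and from 169.8 to 24.7 CPM with siIGF2BP3. Among epithelial markers, group means of KRT18 lay between 120.4 and 209.9 CPM and those of EPCAM between 13.0 and 15.0 CPM, while CDH1, KRT19, KRT20 and VIL1 were at 0 or below 0.0763 CPM. All 8 markers of blood, endothelial, stromal and liver cells stayed at or below 0.546 CPM. In the sgAAVS1 line Dox also lowered SPOP, from 36.7 to 11.4 CPM, so this control line changed too. Single libraries stood apart most in both groups with lowered IGF2BP2, and less in others. By a chi-square of counts per gene between replicates, sgIGF2BP2 Dox replicate 2 differed from the other Dox libraries by 12.001 to 16.9, against 2.11 to 2.85 among those, and siIGF2BP2 replicate 3 differed from the rest of its group by 5.76 to 6.59, against 1.497 to 1.85. In sgAAVS1 cells Dox replicate 2 differed by 3.15 to 4.35, against 1.57 to 1.98, and DMSO replicate 4 by 3.50 to 4.99, against 2.05 to 2.46. In sgIGF2BP3 cells Dox replicate 4 differed by 2.67 to 3.11, against 1.51 to 1.68.

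Of the 40 genes, 38 had enough counts to be tested. SARS2, the mitochondrial seryl-tRNA synthetase, had 4 counts over all 40 libraries, and VARS2, the mitochondrial valyl-tRNA synthetase, had 0. In GENCODE release 29, SARS2 shares 1492 of its 3231 exon bases with the readthrough gene ENSG00000269547 on the same strand, and VARS2 shares 1858 of 8448 with GTF2H4. GTF2H4 and ENSG00000269547 also had 0 counts in every library. The values of SARS2 and VARS2 in the table are therefore not read here as levels of their RNA.

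Cytosolic synthetases were the more abundant set per length of exon. Averaged over 40 libraries, the 20 cytosolic genes had a median level of 33.4 CPM per kb of exon, from 3.27 for CARS1 to 69.3 for FARSA. The 15 tested mitochondrial genes had a median of 8.89 CPM per kb, the level of LARS2, from 2.81 for FARS2 to 30.6 for IARS2. AIMP2 was at 21.6, AIMP1 at 16.2 and EEF1E1 at 5.72 CPM per kb. Cysteinyl-tRNA synthetase, CARS1, was the exception among cytosolic enzymes, below 14 of the 15 tested mitochondrial genes on this scale. That rank depends on the length used, which counts every annotated exon base of a gene, 10037 for CARS1. In CPM without length CARS1, at 32.8, was still the lowest cytosolic gene. It then lay above HARS2, WARS2, NARS2, FARS2 and PARS2 and below the other tested mitochondrial genes. Behind FARSA came IARS1 at 68.7, GARS1 at 57.7 and QARS1 at 48.7 CPM per kb, and the pair FARSA and IARS1 differed by less than the SD of either over the libraries. The subunits FARSA and FARSB, which assemble into 1 enzyme, were at 69.3 and 25.1 CPM per kb.

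**Figure D1:**
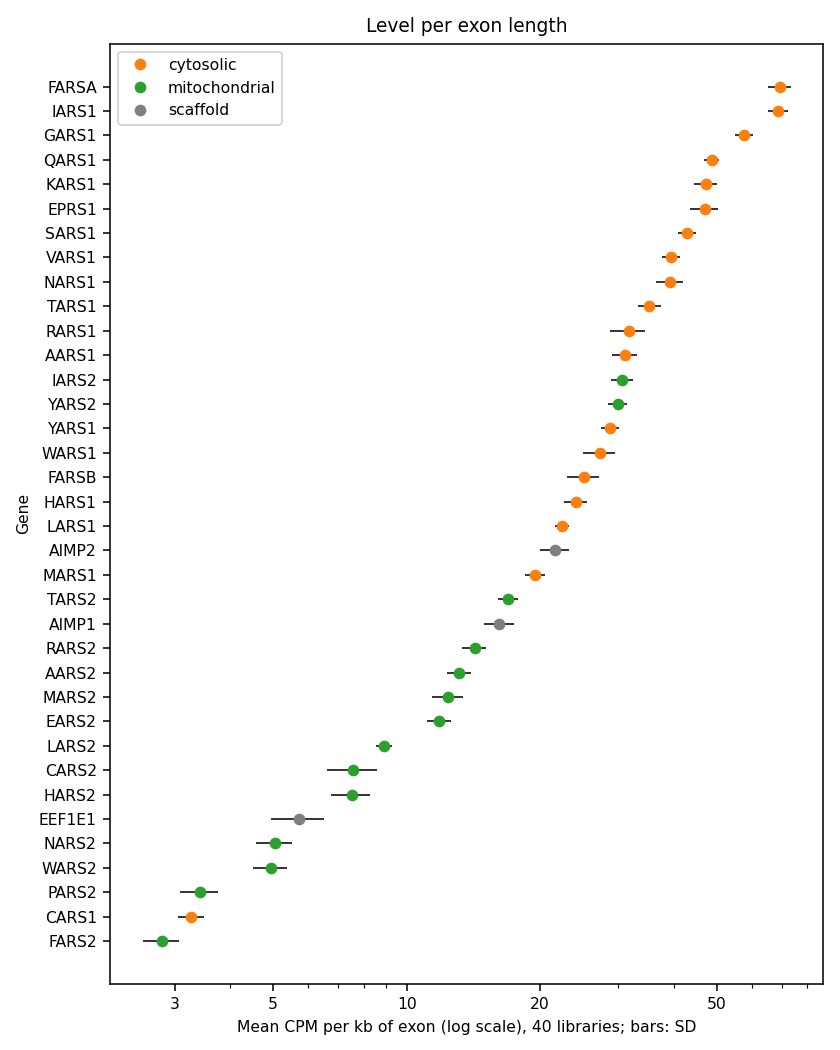
Mean level of 36 of the 38 tested genes in CPM per kb of exon on a log axis, with bars for the SD over 40 libraries, orange for cytosolic, green for mitochondrial and grey for scaffold genes. Cytosolic genes fill the top 12 places, and CARS1 at 3.27 CPM per kb lies at the low end with FARS2 at 2.81.

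Levels moved little over the 10 groups. The ratio of the highest to the lowest group mean was 1.49 for CARS2, the mitochondrial cysteinyl-tRNA synthetase, 1.38 for EEF1E1, 1.37 for HARS2 and 1.33 for WARS2, and as little as 1.07 for LARS2. In the 5 treatment comparisons (Dox against DMSO in 3 lines, and 2 siRNAs against siControl), a gene is called when its adjusted p is under 0.05 in edgeR's quasi-likelihood test with Benjamini-Hochberg adjustment over 11428 genes. There were 34 such calls, 30 of them lower and 4 higher, on 24 of the 38 tested genes. Over the same comparisons that is 15.8% lower and 2.11% higher calls for the members, beside 7.96% lower and 7.64% higher for all genes, and 63.2% of members called at least once, beside 54.5% of all genes. In bulk RNA such as this, fewer cells of a kind and less RNA per cell cannot be told apart. The sizes of the calls ran from 0.0881 to 0.317 on the log2 scale.

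The summed level of each enzyme set gives the comparison of compartments. In sgIGF2BP2 cells the 20 cytosolic genes summed to 3857 ± 42.0 CPM (SD, n = 4) with DMSO and 3757 ± 43.6 CPM with Dox, and to 3707 ± 33.6 CPM in the siControl and 3526 ± 57.4 CPM in the siIGF2BP2 group. In sgIGF2BP3 cells the sums were 3821 ± 31.3, 3778 ± 49.3, 3747 ± 34.4 and 3601 ± 31.97 CPM for DMSO, Dox, siControl and siIGF2BP3. In sgAAVS1 cells they were 3821 ± 33.5 CPM with DMSO and 3714 ± 32.4 CPM with Dox. Each targeting siRNA group lay wholly below its siControl group, and the mean fell by 4.89% for siIGF2BP2 and fell by 3.92% for siIGF2BP3, and each siControl group lay below the DMSO group of its line. With Dox the sgAAVS1 libraries also lay wholly below DMSO (-2.79%), whereas the Dox groups of sgIGF2BP2 and sgIGF2BP3 cells overlapped their DMSO groups.

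The mitochondrial sum moved differently. It was 743 ± 9.66 CPM with siControl and 737 ± 14.5 CPM with siIGF2BP2 in sgIGF2BP2 cells, and 740.4 ± 13.3 CPM and 728 ± 9.57 CPM with siControl and siIGF2BP3 in sgIGF2BP3 cells, and both pairs overlapped. With Dox it fell wholly below DMSO in sgIGF2BP2 cells, at 706 ± 6.55 against 736 ± 6.81 CPM. In sgAAVS1 cells the sums were 739.9 ± 9.69 CPM with DMSO and 724 ± 7.16 CPM with Dox, and in sgIGF2BP3 cells 726 ± 6.97 and 733 ± 4.82 CPM, with overlap in both lines.

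The ratio of the cytosolic to the mitochondrial sum was lowest in the siIGF2BP2 group. In sgIGF2BP2 cells it was 5.24 ± 0.0147 with DMSO and 5.32 ± 0.0686 with Dox, and 4.99 ± 0.0232 in the siControl and 4.79 ± 0.0928 in the siIGF2BP2 group. The siIGF2BP2 libraries (4.68 to 4.90) did not reach the siControl libraries (4.96 to 5.02). In sgIGF2BP3 cells it was 5.26 ± 0.0212, 5.15 ± 0.0535, 5.06 ± 0.110 and 4.95 ± 0.106, for DMSO, Dox, siControl and siIGF2BP3. There the Dox libraries (5.07 to 5.18) lay wholly below DMSO (5.24 to 5.29), and the siRNA groups overlapped. The sgAAVS1 groups, at 5.16 ± 0.0629 and 5.13 ± 0.0814, overlapped as well. These sums depend on how libraries are scaled. With library totals and no scaling factor, the cytosolic change was -0.0440% for Dox in sgAAVS1 cells and -3.11% for siIGF2BP2, and the mitochondrial change turned to 0.63% for Dox in sgAAVS1 cells and to 1.02% for siIGF2BP2. The groups of Dox and DMSO then overlapped for the cytosolic sum in sgAAVS1 cells and for the mitochondrial sum in sgIGF2BP2 cells (705.5 to 726.2 against 715.1 to 742.0 CPM, a change of -2.05%), as did the cytosolic sums of siControl and DMSO in both lines. Each targeting siRNA group still lay below its siControl group. The ratio within a library is free of that choice, though not of the weight of single genes such as CARS2.

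**Figure D2:**
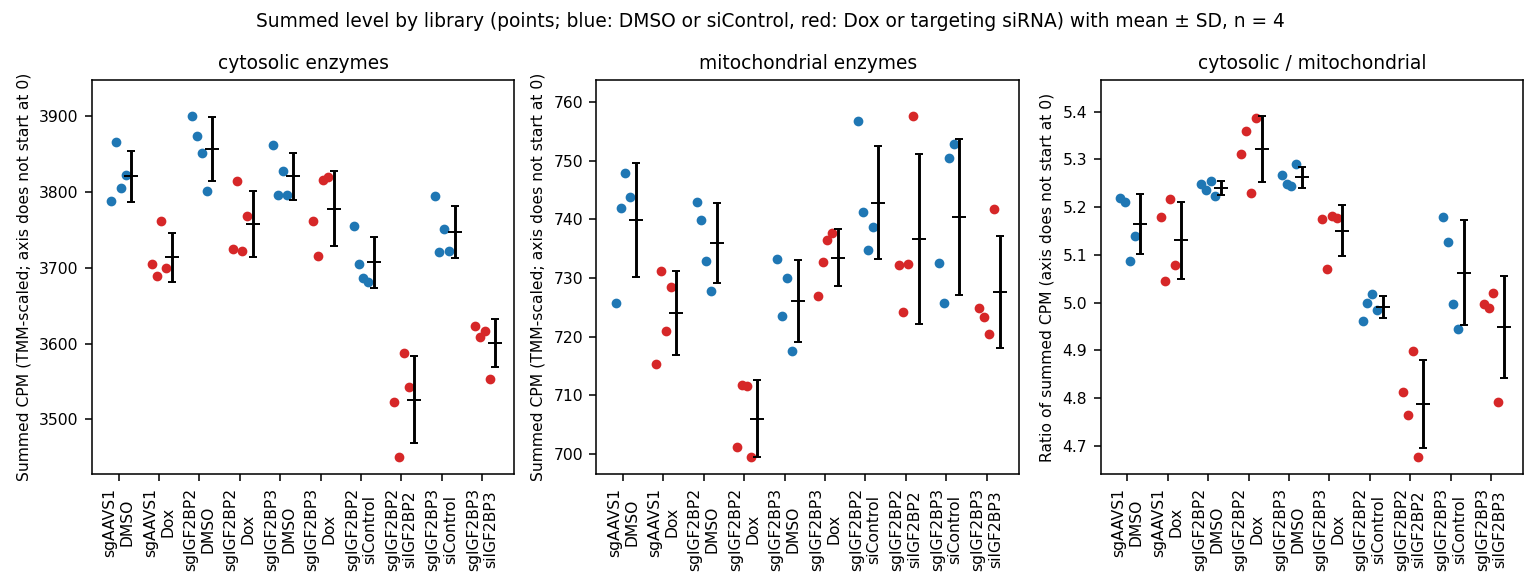
Summed CPM of cytosolic genes, of mitochondrial genes, and their ratio, 1 point per library with mean ± SD (n = 4), blue for DMSO or siControl and red for Dox or targeting siRNA; the axes do not start at 0. The siIGF2BP2 group has the lowest mean cytosolic sum (3526 ± 57.4 CPM) and mean ratio (4.79 ± 0.0928), while the lowest mean mitochondrial sum is that of sgIGF2BP2 cells with Dox (706 ± 6.55 CPM).

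Knockdown of IGF2BP2 moved the most synthetase genes. With siIGF2BP2, 10 of 20 cytosolic genes were lower and 1 was higher, and 5 of 15 tested mitochondrial genes were lower and 1 was higher, against 18.4% lower and 18.4% higher among all 11428 genes. Over the 38 genes that is 42.1% lower and 7.89% higher. The median log2 fold change was -0.08 for cytosolic and -0.08 for mitochondrial genes, beside 0.01 for all genes. The lower cytosolic genes included NARS1, FARSB, KARS1, RARS1, EPRS1, HARS1, TARS1, LARS1 and YARS1, and the lower mitochondrial genes were WARS2, YARS2, EARS2, HARS2 and AARS2.

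NARS1 (chromosome 18, 57600656 to 57622213, reverse strand, GRCh38) encodes the cytosolic asparaginyl-tRNA synthetase. Its 4 siControl libraries held 161, 159.7, 169 and 161 CPM and its 4 siIGF2BP2 libraries 139.6, 122, 128 and 135 CPM. The groups were well apart, every siIGF2BP2 library being below the lowest control (log2 fold change -0.31 with SE 0.037 and edgeR adjusted p = 2.01e-10). WARS2 (chromosome 1, 119031216 to 119140671, reverse strand), the mitochondrial tryptophanyl-tRNA synthetase, was at 18.5, 18.5, 20.9 and 18.8 CPM with siControl and 16.8, 15.6, 15.9 and 13.5 CPM with siIGF2BP2. Here too no library overlapped (log2 fold change -0.32 with SE 0.074 and edgeR adjusted p = 0.000451). FARSB, the β subunit of phenylalanyl-tRNA synthetase, was at 88, 80.8, 82.4 and 83.5 CPM with siControl and 69.6, 72.99, 79.6 and 69.7 CPM with siIGF2BP2. The FARSB groups came close without overlapping (log2 fold change -0.20 with SE 0.048 and edgeR adjusted p = 0.000565), while its partner FARSA was at 164 ± 4.81 and 155 ± 2.36 CPM and was not called (log2 fold change -0.08 with SE 0.041 and edgeR adjusted p = 0.137).

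Genes of the multisynthetase complex moved in both directions with siIGF2BP2. Among its 11 genes, EPRS1, KARS1, RARS1, LARS1 and the scaffold AIMP2 were lower, QARS1 and the scaffold AIMP1 were higher, and IARS1, MARS1 and EEF1E1 were not called. QARS1, the glutaminyl-tRNA synthetase, was at 235.8, 227.2, 218.0 and 224.6 CPM with siControl and 239.9, 238.4, 256.5 and 235.9 CPM with siIGF2BP2. All 4 siIGF2BP2 values lay just above the controls (log2 fold change 0.10 with SE 0.034 and edgeR adjusted p = 0.0174). AIMP1, the p43 scaffold that is also released as a cytokine, was at 47.2, 48.3, 50.4 and 51.2 CPM with siControl and 53.2, 50.4, 59.1 and 55 CPM with siIGF2BP2. One siIGF2BP2 library of AIMP1 fell within the control range (log2 fold change 0.15 with SE 0.05 and edgeR adjusted p = 0.0145). The complex scaffold AIMP2 was at 39.4 ± 0.808 and 34.99 ± 3.47 CPM (log2 fold change -0.17 with SE 0.055 and edgeR adjusted p = 0.0115). By structural class, 6 of 17 tested class I enzymes were lower and 2 higher, and 8 of 17 class II enzymes were lower and 0 higher; whether the classes differ was not tested.

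Of the 19 calls with siIGF2BP2, 11 held in all 13 alternative fits, among them NARS1, WARS2, FARSB, KARS1, EPRS1, LARS1, RARS1, TARS1, YARS2 and CARS2. The other 8 lost the call in 1 to 8 alternatives, with HARS2 the least stable. Without siIGF2BP2 replicate 3, the library that stood apart, 17 members were called, and EARS2 (edgeR adjusted p = 0.0574), QARS1 and AIMP1 were not among them. QARS1 was no longer called without siControl replicate 3 (edgeR adjusted p = 0.0869) or siIGF2BP2 replicate 3 (edgeR adjusted p = 0.117), nor AIMP1 without siControl replicate 1 (edgeR adjusted p = 0.0668) or siIGF2BP2 replicate 3 (edgeR adjusted p = 0.111). Of the 4 tested epithelial markers, KRT18 was called lower here, from 169.7 ± 1.01 to 120.4 ± 8.85 CPM, and KRT8 higher, from 44.9 ± 2.36 to 65.6 ± 7.39 CPM; their part in the result was not tested.

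CARS2 (chromosome 13, 110641412 to 110713603, reverse strand) went the other way from most members. With siControl its libraries in sgIGF2BP2 cells held 75.96, 81.2, 85.1 and 93.8 CPM and with siIGF2BP2 96.5, 96.2, 105 and 104 CPM. The siIGF2BP2 values were all higher (log2 fold change 0.27 with SE 0.047 and edgeR adjusted p = 5.21e-06). With Dox in the same line CARS2 went from 70.3, 72.8, 66.8 and 72.7 CPM to 75.5, 78.1, 78.7 and 77.2 CPM, again without overlap (log2 fold change 0.14 with SE 0.049 and edgeR adjusted p = 0.0411). This Dox call was lost in 7 of 13 alternatives, 5 of them leaving out 1 library: without DMSO replicate 1 or 3 the edgeR adjusted p was 0.0683 or 0.200, and without Dox replicate 2, 3 or 4 it was 0.0843, 0.0844 or 0.0672. Dox in the other lines gave log2 fold changes of 0.08 in sgAAVS1 and 0.12 in sgIGF2BP3 cells, and siIGF2BP3 gave 0.09, none of them called.

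CARS2 also had the largest called change of any member between siControl and DMSO, in both lines. In sgIGF2BP3 cells its DMSO libraries held 64.1, 65.1, 69.97 and 70.7 CPM and its siControl libraries 78.96, 83.4, 82.1 and 88.5 CPM, with every siControl library higher (log2 fold change 0.31 with SE 0.049 and edgeR adjusted p = 1.97e-06), and in sgIGF2BP2 cells siControl was likewise above DMSO (log2 fold change 0.25 with SE 0.048 and edgeR adjusted p = 7.48e-05). The siRNA and the siControl comparisons share the siControl libraries. CARS2 shares 326 exon bases with ING1 on the opposite strand. ING1 was not called with siIGF2BP2 (log2 fold change -0.06, edgeR adjusted p = 0.601) or with siControl in either line, and it was higher with Dox in sgIGF2BP2 cells (0.25, edgeR adjusted p = 0.0303). Exons of other members overlap other genes too, and the part of such overlaps in these results was not tested. With siIGF2BP2, UBFD1, which shares 370 exon bases with EARS2 on the opposite strand, fell together with it (log2 fold change -0.58 with edgeR adjusted p = 6.32e-17 for UBFD1 and -0.15 for EARS2). TERF2IP, which shares 176 with KARS1 on the opposite strand, also fell (-0.36 with edgeR adjusted p = 2.6e-09, beside -0.14 for KARS1), while with Dox in sgIGF2BP2 cells it rose (0.18, edgeR adjusted p = 0.00209) and KARS1 fell (-0.16). S100PBP, which shares 396 with YARS1 on the opposite strand, was higher with siIGF2BP2 (0.27, edgeR adjusted p = 0.0025) where YARS1 was lower (-0.09).

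**Figure D3:**
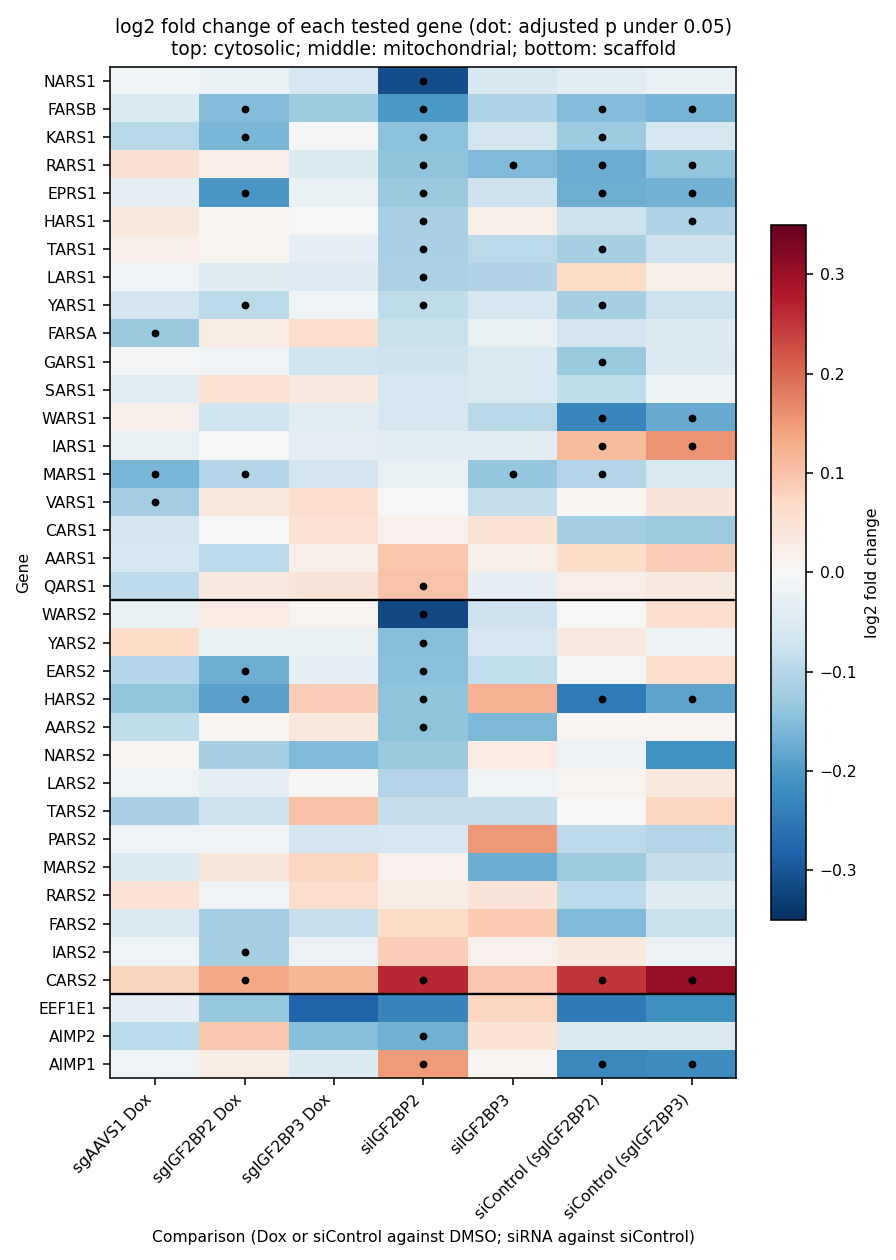
Log2 fold change of 36 of the 38 tested genes (rows; cytosolic, mitochondrial and scaffold blocks, ordered by the siIGF2BP2 value) in 7 comparisons (columns), blue for lower and red for higher, with a dot where the adjusted p is under 0.05. The siIGF2BP2 column holds 18 dots, the sgIGF2BP3 Dox column holds 0, and CARS2 is red in all 7 columns.

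Dox in sgIGF2BP2 cells lowered 9 of the 38 genes and raised 1, CARS2. The lower genes were 5 of 20 cytosolic (EPRS1, KARS1, FARSB, MARS1 and YARS1) and 4 of 15 mitochondrial (HARS2, EARS2 and IARS2 among them), against 10.4% lower and 10.0% higher among all genes. The medians stayed near 0, at -0.01 for cytosolic and -0.03 for mitochondrial genes. EPRS1 (chromosome 1, 219968601 to 220046658, reverse strand), the joint glutamyl- and prolyl-tRNA synthetase, held 287, 274, 277 and 280.0 CPM with DMSO and 241, 231, 249 and 251 CPM with Dox. The highest Dox library was below the lowest DMSO library (log2 fold change -0.20 with SE 0.032 and edgeR adjusted p = 1.17e-06). In sgAAVS1 cells EPRS1 was at 262, 262, 267 and 280.0 CPM with DMSO and 258, 259.5, 272 and 258 CPM with Dox, which overlap. The Dox effect on EPRS1 was lower in sgIGF2BP2 than in sgAAVS1 cells by 0.17 (log2 difference -0.17 with SE 0.045 and edgeR adjusted p = 0.0112). EPRS1 was the only member called in that difference, where 6.97% of all genes were, and it held in all 21 alternatives. Without sgAAVS1 DMSO replicate 4 there were 4 called members, without sgIGF2BP2 DMSO replicate 2 there were 3, and without sgAAVS1 DMSO replicate 3 or sgIGF2BP2 Dox replicate 1 there were 2.

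HARS2, the mitochondrial histidyl-tRNA synthetase, held 29.6, 30.8, 32.8 and 29.9 CPM with DMSO and 26.98, 27.97, 26.6 and 26.6 CPM with Dox in sgIGF2BP2 cells, without overlap (log2 fold change -0.19 with SE 0.056 and edgeR adjusted p = 0.00867), and lost its call without DMSO replicate 3 (edgeR adjusted p = 0.0823). Of the 10 calls, those of EARS2, EPRS1 and KARS1 were among the 4 that held in all 13 alternatives, and 6 were left without DMSO replicate 3 or without Dox replicate 4. Without Dox replicate 2, the library that stood apart, 7 were left, and the calls of YARS1, FARSB and CARS2 were lost (edgeR adjusted p = 0.0537, 0.0754 and 0.0843).

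Both treatments of sgIGF2BP2 cells lower the same target, by different routes. EPRS1, KARS1, FARSB, YARS1, HARS2 and EARS2 were lower in both, and CARS2 was higher in both. That is 6 of the 9 lower calls with Dox and 6 of the 16 with siIGF2BP2. The overlap was not tested against chance, and the share of all genes lower in both was not counted. Non-targeting siControl against DMSO in the same line also gave lower EPRS1, KARS1, FARSB, YARS1 and HARS2 and higher CARS2. These calls were thus not confined to treatments that lower IGF2BP2. The siControl and the Dox comparison share the DMSO libraries. The Dox and the siRNA comparison use separate control libraries. NARS1 and WARS2, which fell most with siIGF2BP2, gave -0.02 and 0.03 with Dox and were not called.

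**Figure D4:**
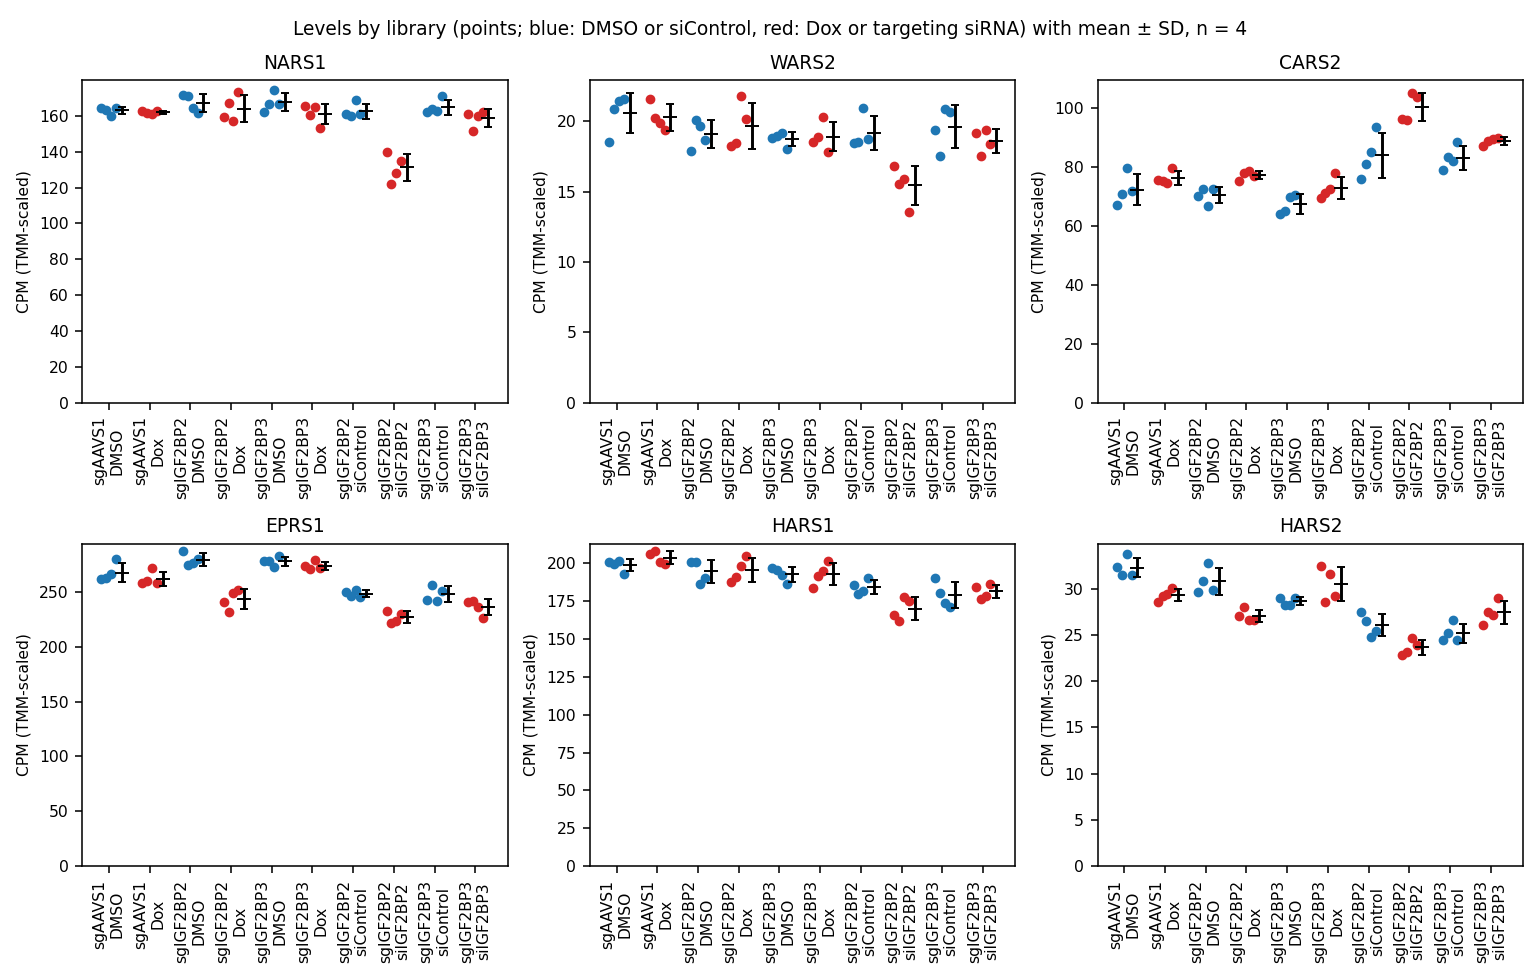
CPM of NARS1, WARS2, CARS2, EPRS1, HARS1 and HARS2 in every library (points) with mean ± SD (n = 4) for the 10 groups, blue for DMSO or siControl and red for Dox or targeting siRNA. NARS1 has its lowest mean in the siIGF2BP2 group (131 ± 7.66 CPM), whereas CARS2 has its highest there (100.5 ± 4.83 CPM) and EPRS1 is lower in sgIGF2BP2 cells with Dox than with DMSO.

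Dox in sgAAVS1 cells, the control for induced cutting, also lowered SPOP from 36.7 to 11.4 CPM. The part of that fall in the calls here, and in differences from this line, was not tested. Among the 38 genes Dox lowered 3 and raised 0 in sgAAVS1 cells, against 8.68% lower and 7.25% higher among all genes. All 3 were cytosolic; at an unadjusted p under 0.05 there were 6 cytosolic and 4 mitochondrial genes, and DESeq2 called 4 and 0. MARS1, the cytosolic methionyl-tRNA synthetase, held 145, 152, 148 and 144 CPM with DMSO and 128, 129.9, 135 and 136 CPM with Dox, without overlap (log2 fold change -0.16 with SE 0.034 and edgeR adjusted p = 0.000472). MARS1 shares 355 exon bases on the opposite strand with DDIT3, which was not called in any of the 5 treatment comparisons. FARSA held 178, 189.7, 184 and 171 CPM with DMSO and 164, 168, 160.0 and 167 CPM with Dox, also apart (log2 fold change -0.13 with SE 0.041 and edgeR adjusted p = 0.0215). VARS1, the cytosolic valyl-tRNA synthetase, held 256, 262, 231 and 225 CPM with DMSO and 222, 220.4, 228 and 225 CPM with Dox, and its groups overlapped (log2 fold change -0.12 with SE 0.04 and edgeR adjusted p = 0.0255). MARS1 alone kept its call in all 13 alternatives. FARSA lost its call without DMSO replicate 2 or 3 (edgeR adjusted p = 0.103 and 0.0584) or Dox replicate 1 or 3 (0.0535 and 0.0632), and VARS1 without DMSO replicate 1 or 2 (0.111 and 0.175) or Dox replicate 1 or 2 (0.0640 and 0.0725).

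Dox in sgIGF2BP3 cells gave 0 called members by edgeR's quasi-likelihood test, and 0 by DESeq2, against 1.01% lower and 1.64% higher among all genes. At an unadjusted p under 0.05 there were 6 members, 2 from each of the cytosolic, mitochondrial and scaffold sets. AIMP2 (chromosome 7, 6009245 to 6023834) lies on the same chromosome as IGF2BP3, the gene cut in this line. GARS1 lies on chromosome 7 too, and EEF1E1 on chromosome 6. AIMP2 shares 532 exon bases on the opposite strand with EIF2AK1, which was not called here (log2 fold change -0.10, edgeR adjusted p = 0.146). The part of position or overlap in the AIMP2 values was not tested. AIMP2 held 42.2, 39.6, 40 and 38.9 CPM with DMSO and 35.4, 37.96, 34.5 and 36.9 CPM with Dox. All Dox values of AIMP2 were below DMSO, and the change missed the threshold (log2 fold change -0.15 with SE 0.055 and edgeR adjusted p = 0.127). EEF1E1, the smallest scaffold, was at 13.1 ± 1.08 CPM with DMSO and 10.8 ± 1.61 CPM with Dox, the largest fall among members there and not called (log2 fold change -0.28 with SE 0.1 and edgeR adjusted p = 0.131).

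Compared with sgAAVS1 cells, the Dox effect in sgIGF2BP3 cells was higher for 3 members, where 7.78% of all genes differed. FARSA and VARS1, of these 3, were called lower with Dox in sgAAVS1 cells, and none was called in sgIGF2BP3 cells. TARS2, the mitochondrial threonyl-tRNA synthetase, held 70.7, 74.8, 72.2 and 73.5 CPM with DMSO and 64.2, 67.3, 70.2 and 68.2 CPM with Dox in sgAAVS1 cells. In sgIGF2BP3 cells it held 68.3, 74.2, 66.1 and 62.1 CPM and 68.2, 76.2, 74.8 and 71.7 CPM. The mean thus lay lower with Dox in the first line and higher in the second, with a log2 difference of 0.21 (with SE 0.066 and edgeR adjusted p = 0.0324). For FARSA the sgIGF2BP3 libraries held 179, 171, 174 and 160.2 CPM with DMSO and 171, 173, 182 and 188 CPM with Dox, which overlap. The log2 difference of FARSA was 0.19 (edgeR adjusted p = 0.0296) and that of VARS1 0.18 (edgeR adjusted p = 0.0329). The 3 calls were all lost (0 members) without sgAAVS1 DMSO replicate 2, sgAAVS1 Dox replicate 1, sgIGF2BP3 DMSO replicate 4 or sgIGF2BP3 Dox replicate 4, 1 was left without sgAAVS1 Dox replicate 2 or sgIGF2BP3 DMSO replicate 3, and 5 were called without sgAAVS1 DMSO replicate 4.

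Knockdown of IGF2BP3 lowered 2 cytosolic members of the multisynthetase complex and 0 mitochondrial genes were called by edgeR's quasi-likelihood test or DESeq2 (3 at an unadjusted p under 0.05), against 1.40% lower and 0.936% higher among all genes. MARS1 held 144, 137, 139 and 135 CPM with siControl and 125, 126, 127 and 128 CPM with siIGF2BP3. No library of MARS1 overlapped (log2 fold change -0.14 with SE 0.034 and edgeR adjusted p = 0.0141). RARS1, the cytosolic arginyl-tRNA synthetase, held 106, 100.3, 104 and 108 CPM with siControl and 93.96, 95.1, 90.05 and 95.8 CPM with siIGF2BP3, again apart (log2 fold change -0.15 with SE 0.043 and edgeR adjusted p = 0.0308). The median log2 fold change was -0.06 for cytosolic and -0.01 for mitochondrial genes, beside 0.00 for all genes. A further 8 of the 38 members had groups that did not overlap but were not called, as did 7.76% of all genes. RARS1 lost its call without siControl replicate 1, 3 or 4 (edgeR adjusted p = 0.0979, 0.0618 and 0.109) or siIGF2BP3 replicate 1, 2 or 3 (0.0706, 0.0556 and 0.131), and MARS1 without siControl replicate 1 (0.0889), which left 0 calls.

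The siRNA effects differed for 4 members, all higher for siIGF2BP3 than for siIGF2BP2, where 18.7% of all genes differed. NARS1 held 162, 164, 162 and 171 CPM with siControl and 161, 152, 160.2 and 162 CPM with siIGF2BP3, groups that overlap, in contrast to its fall with siIGF2BP2. The log2 difference was 0.25 (with SE 0.052 and edgeR adjusted p = 0.000157). HARS2 held 27.4, 26.5, 24.8 and 25.4 CPM with siControl and 22.9, 23.2, 24.6 and 23.9 CPM with siIGF2BP2, and 24.4, 25.2, 26.6 and 24.4 CPM with siControl and 26.04, 27.5, 27.2 and 28.96 CPM with siIGF2BP3. Means of HARS2 thus moved in opposite directions, with a log2 difference of 0.26 (with SE 0.082 and edgeR adjusted p = 0.0154). HARS2 shares 152 exon bases on the same strand with ZMAT2, which gave a like difference (0.26, edgeR adjusted p = 0.0028) and was itself higher with siIGF2BP3 (0.16, edgeR adjusted p = 0.0479) and lower with siControl in sgIGF2BP3 cells (-0.15, edgeR adjusted p = 0.0146); its part in the HARS2 values was not tested. AIMP2 differed by 0.22 (edgeR adjusted p = 0.039). NARS1 and HARS2 kept the call in all 21 alternatives, and 2 members were left without sgIGF2BP2 siControl replicate 3.

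Transfection with the non-targeting siRNA also moved synthetase genes relative to DMSO. In sgIGF2BP2 cells 9 cytosolic genes were lower (WARS1, RARS1, EPRS1, FARSB, KARS1, GARS1, YARS1, TARS1 and MARS1) and IARS1 higher, while HARS2 and AIMP1 were lower and CARS2 higher, against 8.16% lower and 10.2% higher among all genes. In sgIGF2BP3 cells 6 cytosolic genes were lower (WARS1, EPRS1, FARSB, RARS1 and HARS1 among them) and IARS1 higher, and again HARS2 and AIMP1 were lower and CARS2 higher, against 8.54% lower and 10.9% higher. Cytosolic medians were -0.10 and -0.06, and mitochondrial medians 0.00 and -0.02. DMSO and siControl cultures also differ in the reagents and time of transfection, which cannot be told apart here.

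WARS1, the cytosolic tryptophanyl-tRNA synthetase and an interferon-inducible gene, held 194, 178, 187 and 188 CPM with DMSO and 164, 159.8, 160.2 and 153 CPM with siControl in sgIGF2BP2 cells. The groups were far apart (log2 fold change -0.23 with SE 0.034 and edgeR adjusted p = 3.46e-07). IARS1, the cytosolic isoleucyl-tRNA synthetase, held 498, 486, 506 and 494 CPM with DMSO and 548, 542, 532 and 522 CPM with siControl, all siControl values being higher (log2 fold change 0.11 with SE 0.029 and edgeR adjusted p = 0.0034). In sgIGF2BP3 cells IARS1 held 487, 491, 498 and 497 CPM with DMSO and 551, 538, 555 and 558 CPM with siControl. Again the groups did not overlap (log2 fold change 0.16 with SE 0.029 and edgeR adjusted p = 3.14e-05). IARS1 was not called in any of the 5 treatment comparisons. AIMP1 held 56.6, 55.4, 56.5 and 56.8 CPM with DMSO and 46.9, 47.9, 45.2 and 53.1 CPM with siControl in sgIGF2BP3 cells. It fell without overlap (log2 fold change -0.22 with SE 0.05 and edgeR adjusted p = 0.000709). HARS2 fell from 30.8 ± 1.42 to 26.02 ± 1.18 CPM in sgIGF2BP2 cells (log2 fold change -0.25 with SE 0.055 and edgeR adjusted p = 0.000607).

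HARS1 and HARS2 are close homologs that lie head to head on chromosome 5, so that their promoter windows overlap. Their RefSeq start sites, 140691370 on the reverse strand for HARS1 and 140691455 on the forward strand for HARS2, are 85 bases apart. The HARS2 window from 250 bases before to 50 after its start, chr5:140691205-140691504 (GRCh38.p14, forward strand, from RefSeq), is shown because the 184 bases in capitals also belong to the HARS1 window.
HARS2: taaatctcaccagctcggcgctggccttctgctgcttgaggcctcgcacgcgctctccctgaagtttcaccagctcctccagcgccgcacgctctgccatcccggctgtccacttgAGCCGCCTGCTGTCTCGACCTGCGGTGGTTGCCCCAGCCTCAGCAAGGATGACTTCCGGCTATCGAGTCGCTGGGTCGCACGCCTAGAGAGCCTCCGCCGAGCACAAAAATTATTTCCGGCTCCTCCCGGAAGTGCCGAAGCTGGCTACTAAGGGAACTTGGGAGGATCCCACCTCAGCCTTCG

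Both start sites lie within this shared stretch, so only part of it is upstream of both genes. The cytosolic and mitochondrial enzymes did not always move alike. With Dox in sgIGF2BP2 cells HARS1 held 201, 201, 186 and 190.1 CPM with DMSO and 188, 191, 198 and 205 CPM with Dox, which overlap (log2 fold change 0.01 with SE 0.036 and edgeR adjusted p = 0.909), while HARS2 fell as given above. With siIGF2BP2 both were called lower, with log2 fold changes of -0.11 for HARS1 and -0.14 for HARS2, and the HARS2 call was lost in 8 of 13 alternatives. Without siControl replicate 1 or 2 the edgeR adjusted p of HARS2 was 0.174 or 0.0897, and without siIGF2BP2 replicate 1, 2 or 4 it was 0.104, 0.0956 or 0.0697. HARS1 lost its call without siIGF2BP2 replicate 2 (edgeR adjusted p = 0.0561). Dox gave 0.04 and -0.14 for HARS1 and HARS2 in sgAAVS1 cells and 0.00 and 0.09 in sgIGF2BP3 cells, and siIGF2BP3 gave 0.02 and 0.12, none called. Differences between the 2 genes were not tested. They share 437 exon bases on opposite strands, so where reads were counted without strand the genes cannot be told apart in that stretch.

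Promoters of the set were searched for TGATGNAA, or TTNCATCA on the other strand, a core form of the element bound by ATF4 with a C/EBP partner. RefSeq windows of 300 bases were at hand for 33 members. The motif occurred in 1270 of 35116 windows of all genes (3.62%), in 7 of 21 windows of cytosolic members (33.3%), in 1 of 18 windows of mitochondrial members (5.56%) and in 0 of 6 windows of scaffold genes. Counted by gene, these are 7 of 16 cytosolic genes (AARS1, CARS1, GARS1, IARS1, MARS1, NARS1 and TARS1), 1 of 14 mitochondrial genes (YARS2) and 0 of 3 scaffold genes. Below are 60 bases around each match on the gene's own strand (GRCh38.p14), with the motif in capitals, shown because they set the cytosolic promoters beside the single mitochondrial one. They lie at chr16:70289660-70289719 (AARS1, reverse strand), chr11:3057392-3057451 (CARS1, reverse), chr7:30594819-30594878 (GARS1, forward), chr9:92293677-92293736 (IARS1, reverse), chr12:57488038-57488097 (MARS1, forward), chr18:57621789-57621848 (NARS1, reverse), chr5:33440941-33441000 (TARS1, forward) and chr12:32756061-32756120 (YARS2, reverse).
AARS1: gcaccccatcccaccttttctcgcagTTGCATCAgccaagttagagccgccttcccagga
CARS1: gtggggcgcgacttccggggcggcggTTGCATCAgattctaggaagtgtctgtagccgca
GARS1: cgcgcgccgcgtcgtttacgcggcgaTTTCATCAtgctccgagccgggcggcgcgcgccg
IARS1: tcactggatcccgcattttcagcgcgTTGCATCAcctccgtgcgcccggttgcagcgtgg
MARS1: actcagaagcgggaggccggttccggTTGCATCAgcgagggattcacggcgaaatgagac
NARS1: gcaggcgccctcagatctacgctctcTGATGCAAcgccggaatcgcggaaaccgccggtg
TARS1: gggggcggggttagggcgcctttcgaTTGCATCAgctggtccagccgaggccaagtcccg
YARS2: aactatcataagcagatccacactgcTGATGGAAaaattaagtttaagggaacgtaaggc

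A match is a description of letters only. The genes that carry it did not move as a block. With siIGF2BP2, NARS1 (-0.31), TARS1 (-0.11) and YARS2 (-0.15) were called lower, whereas AARS1 (0.10), CARS1 (0.02), GARS1 (-0.07), IARS1 (-0.04) and MARS1 (-0.03) were not called (values are log2 fold changes). Of 13 cytosolic synthetase genes listed as reported ATF4 targets, 5 were lower (38.5%, against 18.4% of all genes) and 0 higher with siIGF2BP2, 3 were lower with Dox in sgIGF2BP2 cells (23.1% against 10.4%), 2 with Dox in sgAAVS1 cells (15.4% against 8.68%), 0 with Dox in sgIGF2BP3 cells (against 1.01%) and 1 with siIGF2BP3 (7.69% against 1.40%).

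Of 17 tested targets of ATF4 outside the synthetases, siIGF2BP2 raised 4 and lowered 4, which is 23.5% each way, near the 18.4% each way among all genes. The 3 that changed most were TRIB3, a pseudokinase that inhibits AKT (67.2 ± 3.43 to 49.3 ± 3.27 CPM; log2 fold change -0.45, edgeR adjusted p = 4.89e-11), the factor ATF5 (log2 fold change -0.43, edgeR adjusted p = 1.55e-10) and the leucine transporter SLC7A5 (274 ± 2.47 to 207 ± 10.3 CPM; log2 fold change -0.41, edgeR adjusted p = 2.51e-15). Dox in sgIGF2BP2 cells raised 5 (29.4%, against 10.0% of all genes), among them DDIT4, an inhibitor of mTORC1 (4.02 ± 0.141 to 7.53 ± 1.12 CPM; log2 fold change 0.93, edgeR adjusted p = 7.47e-07), SESN2 (log2 fold change 0.59, edgeR adjusted p = 0.000125) and CEBPB (log2 fold change 0.49, edgeR adjusted p = 1.3e-05), and lowered 3 (17.6%, against 10.4%). Dox in sgAAVS1 cells raised DDIT4 (log2 fold change 0.60, edgeR adjusted p = 0.00459) and lowered 4 (23.5%, against 8.68% of all genes), among them PHGDH (log2 fold change -0.18, edgeR adjusted p = 0.00826) and SHMT2 (log2 fold change -0.16, edgeR adjusted p = 0.000554), enzymes of serine and glycine synthesis. None of the 17 was called with Dox in sgIGF2BP3 cells or with siIGF2BP3, by edgeR's quasi-likelihood test or DESeq2, and at an unadjusted p under 0.05 there were 3 and 2.

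Some genes of steps next to aminoacylation were called too. Of 11 genes that handle aminoacyl-tRNAs otherwise, siIGF2BP2 lowered 3 (27.3%, against 18.4% of all genes) and raised 0. They were QRSL1 (20.3 ± 1.41 to 16.1 ± 1.65 CPM; log2 fold change -0.34, edgeR adjusted p = 0.000799) and GATC (log2 fold change -0.20, edgeR adjusted p = 0.00693), subunits of the mitochondrial amidotransferase that makes glutaminyl-tRNA in place of a dedicated synthetase, and TARS3, a threonyl-tRNA synthetase close to TARS1 (log2 fold change -0.28, edgeR adjusted p = 0.0401). TARS3 was also the single gene of this list lower with siIGF2BP3 (10.97 ± 1.51 to 8.05 ± 0.855 CPM; log2 fold change -0.42, edgeR adjusted p = 0.0209). Among 7 tested cytosolic elongation factors, EEF1D (log2 fold change -0.15, edgeR adjusted p = 0.0113), EIF5A (log2 fold change -0.15, edgeR adjusted p = 0.0026) and EEF2 (log2 fold change -0.11, edgeR adjusted p = 0.00688) were lower with Dox in sgAAVS1 cells, and EIF5A with siIGF2BP2 (log2 fold change -0.13, edgeR adjusted p = 0.00324). That is 42.9% with Dox in sgAAVS1 cells, against 8.68% of all genes, and 14.3% with siIGF2BP2, against 18.4%. Of 5 mitochondrial elongation factors, TUFM was lower with Dox in sgAAVS1 cells (log2 fold change -0.12, edgeR adjusted p = 0.0124), and with siIGF2BP2 GFM1 was lower (log2 fold change -0.20, edgeR adjusted p = 0.000707) and GUF1 higher (log2 fold change 0.14, edgeR adjusted p = 0.0296).

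The remaining 14 tested members were called in none of the 5 treatment comparisons in the main fit. They were AARS1, CARS1, GARS1, IARS1, SARS1 and WARS1 among cytosolic genes, FARS2, LARS2, MARS2, NARS2, PARS2, RARS2 and TARS2 among mitochondrial genes, and the scaffold EEF1E1. With siIGF2BP2, GARS1 was called with RLE scaling, by DESeq2, and without siControl replicate 2 or siIGF2BP2 replicate 3. AARS1 was called there without siControl replicate 2, and LARS2 without siIGF2BP2 replicate 4. MARS1 was lower in 3 of the 5, the most of any member. Members called at least once had changes no smaller than 0.0881 on the log2 scale in those calls.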

How the data were processed

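Poly(A) RNA of 40 libraries in 10 groups of 4 was measured. Raw read counts for each gene, as whole numbers, are what the authors deposited. The submitters' processing notes name bcl2fastq 2.20.0.422, STAR 2.7.5c and hg38; the counting tool, the annotation and any use of strand are not given in the sources used here. Libraries were made with a directional kit, per the labels' protocols. Counts cover new and old RNA together; base conversions were not analysed here. Other genes share exon bases with several members, and reads of homologs may be split, so such values are uncertain.

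Gene names, exons and lengths came from GENCODE release 29 (GRCh38), and promoter windows from RefSeq (GRCh38.p14). Counts were tested with edgeR 4.0.16 in R 4.3.3 (glmQLFit and glmQLFTest, TMM scaling, filterByExpr by group, a coefficient per group, all 40 libraries, Benjamini-Hochberg over 11428 genes, called at an adjusted p under 0.05). CPM used TMM-scaled totals, with factors from 0.978 to 1.03. SE is the log2 fold change over the square root of F. The lowest chi-square per gene between replicates was 1.50 and the highest 16.9, all above sampling noise. Scripts were tested on simulated data. Alternatives were RLE scaling, no filter, DESeq2 1.42.0, only the compared groups, a replicate block, and leaving out each library; scaling alternatives for sums were chosen after seeing the data. Per-library values were given for up to 3 called members each way per treatment comparison, by size of change, and up to 2 elsewhere, and further lists gave up to 3 called genes; AIMP2, EEF1E1, HARS1 and counterparts of named members were added after their values were seen. Members, lists and rules were chosen with earlier results of these data known. The labels give no batch. Counts cover all members, and the values of some are not reported here.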

Additional observations from a re-analysis of the deposited data

Results flagged for a closer look

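In 4 of 86 groups of 4 libraries checked, 1 library stood far from the other 3, where chance gives about 1 in 20. They were EPRS1 in sgAAVS1 Dox replicate 3 (271.8 CPM, above the rest), WARS2 in sgIGF2BP2 siControl replicate 3 (20.9 CPM, above the rest), AIMP1 in sgIGF2BP3 DMSO replicate 2 (55.4 CPM, below the rest), and the summed level of the 3 scaffold genes in sgIGF2BP3 siControl replicate 3 (96.1 CPM, below the rest). Without its library, WARS2 and EPRS1 kept the calls given for them.

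Treatment effects differed between groups for 7 of the members shown here by edgeR's test of the difference itself. For Dox in sgIGF2BP2 against sgAAVS1 cells 2.63% of tested members were called, beside 6.97% of all genes. For Dox in sgIGF2BP3 against sgAAVS1 cells it was 7.89%, beside 7.78%. Between the siRNAs it was 10.5%, beside 18.7%. The Dox effect was lower in sgIGF2BP2 than in sgAAVS1 cells for EPRS1 (log2 difference -0.17). It was higher in sgIGF2BP3 than in sgAAVS1 cells for TARS2 (0.21), FARSA (0.19) and VARS1 (0.18). FARSA and VARS1 were called lower with Dox in sgAAVS1 cells and not called in sgIGF2BP3 cells. The siRNA effect was higher for siIGF2BP3 than for siIGF2BP2 for HARS2 (0.26), NARS1 (0.25) and AIMP2 (0.22). In 10 of 21 alternatives AIMP2 lost this call. TARS2, VARS1 and FARSA lost theirs in 8, 7 and 6 of 21. The siRNAs were used in different lines, and siRNA and line cannot be told apart here.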

How the results depend on the processing

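Of the 65 called member results over the 10 comparisons, 0 changed direction in any alternative; values that were not called were not followed. With all libraries kept, some counts of called members moved by more than 1.5 times. Dox in sgAAVS1 cells went from 3 to 5 with the replicate block, and Dox in sgIGF2BP2 cells from 10 to 6 with only the compared groups. For siIGF2BP3 the count went from 2 to 1 with no filter and to 4 with only the compared groups. With libraries left out as well, counts moved so in 7 of 13 settings for siIGF2BP3. For Dox in sgAAVS1 and in sgIGF2BP2 cells it was 3 of 13 each. For the Dox differences of sgIGF2BP2 and sgIGF2BP3 from sgAAVS1 cells it was 4 and 7 of 21, and between siRNAs 1 of 21. Leaving out each library gave 1 to 4 calls for Dox in sgAAVS1 cells, 6 to 10 in sgIGF2BP2 cells, 0 to 0 in sgIGF2BP3 cells, 15 to 20 for siIGF2BP2, 0 to 2 for siIGF2BP3, 10 to 14 and 9 to 10 for siControl in the sgIGF2BP2 and sgIGF2BP3 lines, 1 to 4 and 0 to 5 for the differences from sgAAVS1 cells, and 2 to 6 for the difference between siRNAs. The cause of these shifts was not tested. Same-numbered replicates showed no strong shared deviation (correlations from -0.0896 to 0.0924), and the main fit does not pair them. Such correlations cannot tell whether wells were prepared in numbered sets.

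With library totals and no scaling factor, the summed cytosolic change became -0.0440% (Dox, sgAAVS1), -0.53% (Dox, sgIGF2BP2), -3.11% (siIGF2BP2) and -2.90% (siControl, sgIGF2BP2), and the summed mitochondrial change became 0.63% (Dox, sgAAVS1), -2.05% (Dox, sgIGF2BP2) and 1.02% (siIGF2BP2). RLE scaling moved no sum by more than its SD, though with it the cytosolic sums with Dox in sgIGF2BP2 cells (up to 3796 CPM) lay just below DMSO (from 3801 CPM). Genes with low counts were measured less precisely: with siIGF2BP2 the SE of the log2 fold change was 0.106 for EEF1E1 and 0.0744 for WARS2, against 0.0341 for QARS1.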
